A study of Rattus norvegicus with 9 samples.

Results

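XR probes are array probes designed against RefSeq model RNAs, transcripts that an annotation program predicted on the rat genome and classed as not coding for protein. Such models include candidate long noncoding RNAs, unprocessed or alternative transcripts near coding genes, and transcribed pseudogene copies, and an annotation release can withdraw or rename them when evidence for them changes. Long noncoding RNAs as a class can act on chromatin, on splicing, on mRNA stability or on translation, and many are expressed at low levels and in few tissues. The XR probes were the non-control probes of the array whose target name begins with XR and whose probe name ends in P1. The rule found 1698 of the 24684 non-control probes, each printed as 3 spots and each aimed at a different XR accession. The choice of members used no measured value.

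Kidney RNA from 9 male rats was hybridised to 1-colour arrays, 1 array per rat, with 3 rats of each of 3 inbred strains. Dahl S, the Dahl salt-sensitive strain, develops hypertension on a salty diet, Dahl R is the salt-resistant strain selected alongside it, and SHR is the spontaneously hypertensive rat, which becomes hypertensive without added salt. Per the labels, every rat was 53 days old, was weaned at 30 days and then ate a diet with 0.3% salt, so the strains were compared without salt loading. Inbred strains differ at many positions in the genome, and no normotensive strain related to SHR was among the groups. The labels do not say whether rats shared a litter or cage, so p-values measure the spread between these 9 samples.

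None of the 1698 XR accessions matched the 28285 XR accessions of the RefSeq table used for names (assembly GRCr8), so the models are named here by accession alone, and no gene, position or function is attached to them. The probe letters were not used here. Levels below are log2 processed signals relative to the 75th percentile of all non-control spots on the same array, so a level of 0 is the 75th percentile and each unit is a factor of 2. A probe counts as detected on an array where at least 0.5 of its spots carry the scanner software's mark for a signal well above background. Spots with an outlier mark are included in that share. Brightness also depends on each probe's sequence, so levels are compared between strains for 1 probe and not between probes as amounts of RNA.

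The third SHR array stood apart from the others. Its 75th percentile signal was 1462 against 2120 to 2751 on the other 8 arrays, its median background was 88 against 43 to 45, and 9.78% of its XR spots carried an outlier mark against 2.12 to 3.34%. Undetected XR probes had a median level of -4.55 there and of -9.03 to -7.66 elsewhere, so a dim probe reads high on that array. Counts of calls against SHR and the named SHR differences are given with and without it. On the first Dahl S array, XR spots were set against the median of the same spot on the other arrays, the third SHR array left out. Only spots well above background on all of those arrays were counted. Of these, 47 of 290 (16.2%) in grid rows 281 to 360 lay more than 2 log2 units below that median. In the other rows of the first Dahl S array 3 of 1588 (0.189%) did. Of 22 nephron marker genes with probes on the array, 21 were detected on all 8 arrays other than the third SHR array. So were 3 of 4 fat cell genes and 2 of 4 adrenal genes on the array. Lep (leptin, of fat cells) and Cyp11b2 (aldosterone synthase, of the adrenal) were detected on no array. Arrays also shared scans: the 3 Dahl S arrays and the first Dahl R array had 1 scan time in their headers (slide 1), the other two Dahl R arrays and the first and second SHR arrays had another (slide 2), and the third SHR array had its own (slide 3). The labels do not name slides. Below, slide means a set of arrays with the same scan time. With the slide as a block, Dahl S minus Dahl R sets the 3 Dahl S arrays against the first Dahl R array alone. Dahl S minus SHR then also depends on that array, so slide-block results with Dahl S say little about the spread of Dahl R.

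About as many XR models gave no signal in kidney as could be compared between strains. Of the 1698 probes, 797 were detected on 0 of 9 arrays, 99 on 1 or 2 arrays, and 802 on at least 3 arrays, the requirement for testing. Detection was mostly shared between animals: 377 probes were detected on all 9 arrays, and 619 on all 8 arrays when the third SHR array was left out. A probe could enter the tested set through 1 strain alone, so the 802 are the probes that could be compared and not a sample of all XR models. No usable XR spot was marked as saturated (0 spots).

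**Figure D1:**
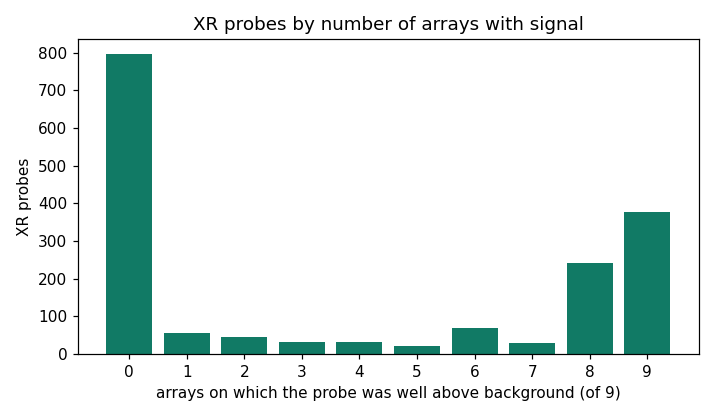
Number of XR probes (vertical axis) by the number of arrays, of 9, on which the probe was well above background (horizontal axis). The bars at 0 arrays (797 probes), 9 arrays (377) and 8 arrays (242) are the tallest, and few probes fall between.

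The share of XR probes detected was 37.9, 46.7 and 38.2% on the Dahl S arrays. It was 50.6, 44.1 and 44.6% on the Dahl R arrays and 43.7, 49.9 and 22.3% on the SHR arrays, of which the third was the lowest of all. The means were 40.9% ± 5.0 for Dahl S, 46.4% ± 3.66 for Dahl R and 38.6% ± 14.5 for SHR (SD, n = 3 each). The strains overlapped, and a difference between them was not detectable (exact permutation test of the F ratio over 9 arrays, p = 0.682, smallest possible 0.00357; p = 0.286 without the third SHR array).

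XR models were detected less often than protein-coding transcripts in every animal. Probes for coding RefSeq transcripts (15321 probes) were detected at 55.2 to 80.2%, and XR detection was 31.9 percentage points lower on average (SD 1.86 over the 9 arrays, with differences from -34.9 to -29.2 points, exact sign-flip permutation test p = 0.00391, the smallest possible, 0.00652 after Benjamini-Hochberg adjustment over 5 tests). All arrays carry the same probes, so this p and the next cover the spread between arrays and not the choice of probes. With 1 marked spot enough for detection, XR minus coding detection was -26.1 points on average. On the first Dahl S array that looser rule raised XR detection from 37.9 to 43.3%, while coding detection was 71.7% under both rules. Against the other 7621 noncoding probes of the array, detected at 23.5 to 54.8%, the gap was small but of 1 sign. XR probes were detected 3.19 points less often (SD 0.88, lower on 9 of 9 arrays, exact sign-flip p = 0.00391, adjusted 0.00652). With 1 marked spot enough, this difference was -2.21 points. The other noncoding probes are a mixture: those for BC cDNA clones were detected at 58.3 to 87.0%, those named MRAK at 22.9 to 55.2%, those named MRuc at 22.8 to 54.0% and those for ultraconserved regions named uc at 5.09 to 29.9%. XR detection therefore lay near the MRAK and MRuc probes, below the BC clones and above the uc regions.

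**Figure D2:**
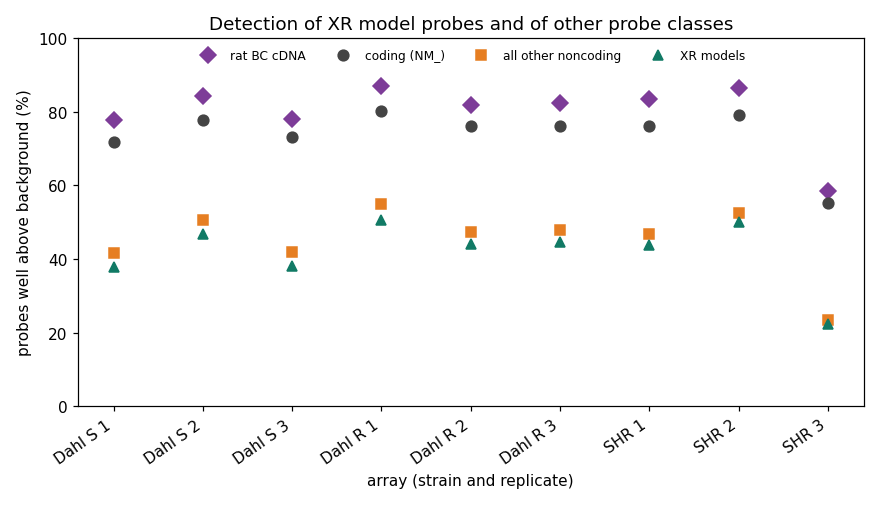
Percentage of probes well above background (vertical axis) on each of the 9 arrays (horizontal axis) for XR probes, coding probes and other classes of noncoding probe. XR detection lies below the coding probes on every array, by 31.9 points on average, and all classes fall on the third SHR array.

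Among the 802 tested XR probes the mean level had a median of -2.77, with quartiles at -4.99 and 0.55 and a range from -6.65 to 7.95. Most were thus dimmer than the 75th percentile of their array, and 237 (29.6%) were above it. As a description of brightness over different probes, and not of amounts of RNA, the median level of tested XR probes was 3.18 log2 units below that of tested coding probes (SD 0.19 over 9 arrays). It was 0.05 below that of other tested noncoding probes (SD 0.13, lower on 4 of 9 arrays), and 0.38 below with all probes in place of the tested ones.

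Measurement error was small for most of the tested XR probes that were detected. The SD over the 3 spots of a probe had a median of 0.09 to 0.13 per array, over probes detected there with no spot marked as an outlier. The SD over 3 animals had a median of 0.11 in Dahl S, 0.09 in Dahl R and 0.40 in SHR, the last with the third SHR array in it. It was taken over probes detected on all 3 arrays of the strain (631, 729 and 268). Undetected probes are in neither figure. Across the tested XR probes, levels on any pair of arrays of 1 strain correlated at 0.990 to 0.998 and on arrays of different strains at 0.968 to 0.994, against 0.910 to 0.939 for any pair with the third SHR array. These correlations are across probes, which are not independent replicates.

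The brightest XR probes were bright on every array with a usable value and varied little. XR_006207 ranged from 7.80 to 8.10 over the 8 arrays with a usable value, XR_006879 from 7.61 to 7.86 over 9 arrays, and XR_008756 from 7.49 to 7.87 over 9. The other 7 of the 10 brightest, XR_006305, XR_007305, XR_006798, XR_007454, XR_007848, XR_005994 and XR_007871, lay between 6.19 and 6.93. All 10 spanned less than a factor of 2 between their highest and lowest animal. In limma, 2 of them differed between Dahl S and SHR, XR_006798 (adjusted p = 0.0253) and XR_007848 (adjusted p = 0.0391), by less than 2-fold. These differences were 0.43 and 0.41 without the third SHR array (adjusted p = 0.00525 and 0.0109). Both calls were lost with the slide as a block, and Dahl S and SHR share no slide.

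Strain differences among the XR models were few between the Dahl strains and more common against SHR. In limma, with p-values adjusted over all 16592 tested probes, 8 of 802 XR probes (0.998%) separated Dahl S from Dahl R at an adjusted p under 0.05, against 1.4% of all tested probes. Between Dahl S and SHR 84 XR probes (10.5%) differed, against 15.7% of all, and between SHR and Dahl R 62 (7.73%) differed, against 13% of all. In each comparison the XR share was below that of all tested probes, and the gap itself was not tested. Arrays of the strains did not overlap at 221 XR probes (27.6%) for Dahl S and Dahl R, at 246 (30.7%) for Dahl S and SHR and at 205 (25.6%) for SHR and Dahl R, against 31.1, 37.9 and 38.7% of all tested probes; every XR probe called was among them. Differences under 2-fold were the rule, covering 789 (98.4%), 701 (87.4%) and 732 (91.3%) of the 802 probes in the 3 comparisons in that order. The median log2 difference over the XR probes was -0.01 for Dahl S minus Dahl R, -0.14 for Dahl S minus SHR and 0.11 for SHR minus Dahl R, beside 0.02, -0.09 and 0.11 over all tested probes. In a bulk tissue, fewer cells of a type and less RNA per cell cannot be told apart. The 3 comparisons share samples, each strain being in 2 of them, so their counts are not independent.

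**Figure D3:**
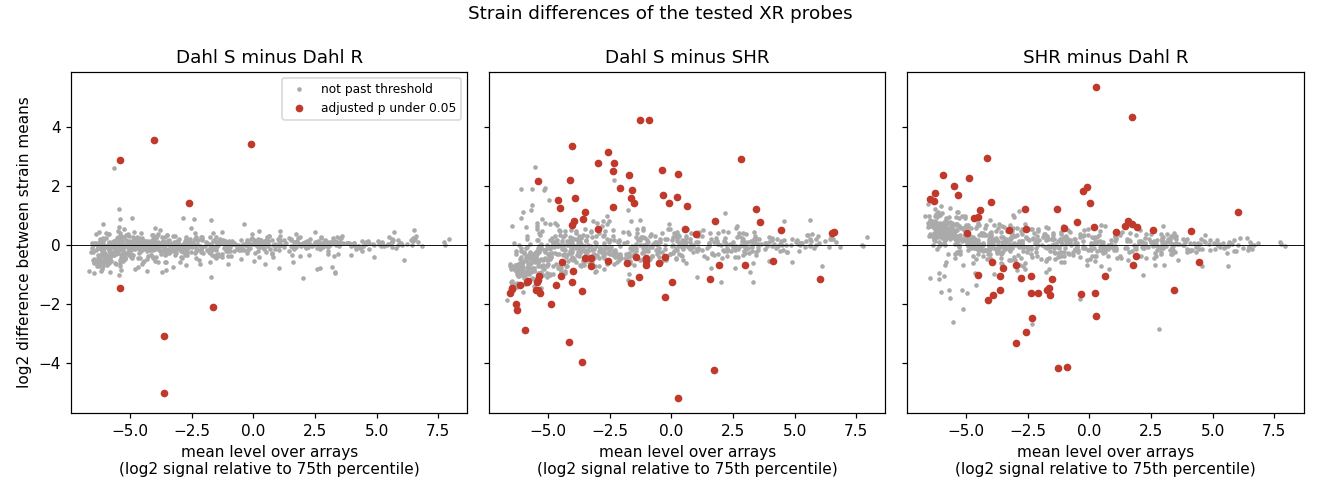
Log2 difference between strain means (vertical axis) against mean level over arrays (horizontal axis, log2 relative to the 75th percentile) for the 802 tested XR probes in each of the 3 comparisons. Red points passed an adjusted p of 0.05 (8, 84 and 62 probes), and most grey points lie within 1 log2 unit of 0.

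At each of the 8 XR probes called between the Dahl strains the difference was at least 2-fold (background 0.922%), with 4 higher in Dahl S (background for that direction 0.705%) and 4 lower (0.699%). XR_008415 passed the threshold under every planned processing alternative in which it was tested, and was the single probe of the 8 to do so. Its levels were 1.61, 1.39 and 1.55 in Dahl S, -1.83, -1.81 and -2.07 in Dahl R, and 0.16, -0.20 and 0.29 in SHR. The 3 strains did not overlap, with Dahl S highest and Dahl R lowest. Dahl S exceeded Dahl R by 3.42 ± 0.15 log2 units (SE, limma adjusted p = 6.06e-05, 10.7-fold) and SHR by 1.44 ± 0.15 (adjusted p = 0.000819), and SHR exceeded Dahl R by 1.98 ± 0.15 (adjusted p = 0.000194). These SHR differences were 1.54 and 1.88 without the third SHR array.

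XR_007868 was high in Dahl S alone. It read -1.56, -1.77 and -1.78 in Dahl S, -5.23, -5.23 and -5.35 in Dahl R, and -5.60, -4.98 and -4.67 in SHR. The Dahl R and SHR values overlapped, the Dahl S values lay well above both, and the probe was detected on 2 of 3 SHR arrays. The differences were 3.57 ± 0.22 from Dahl R (limma adjusted p = 0.000249, 11.9-fold) and 3.38 ± 0.22 from SHR (adjusted p = 9.66e-05, 10.4-fold). SHR differed from Dahl R by 0.19 ± 0.22 (adjusted p = 0.601). Leaving out the third SHR array gave 3.59 from SHR and -0.02 for SHR minus Dahl R.

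XR_005427 had the same order in dimmer signal, with -3.53, -3.97 and -3.61 in Dahl S, -6.55, -6.77 and -6.43 in Dahl R and -6.54, -6.37 and -4.74 in SHR. Dahl S exceeded Dahl R by 2.88 ± 0.44 (limma adjusted p = 0.0225), with 2 of 3 Dahl R arrays detected. XR_009344 differed in the other way, with Dahl R low: -2.07, -1.87 and -2.29 in Dahl S, -3.43, -3.26 and -3.80 in Dahl R, and -2.62, -2.14 and -2.12 in SHR. Here Dahl S and SHR overlapped and both lay above Dahl R. Dahl S minus Dahl R was 1.42 ± 0.20 (limma adjusted p = 0.0164, 2.68-fold). This call was lost with the slide as a block, where the first Dahl R array alone stands for Dahl R.

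Among the 4 lower in Dahl S, XR_007075 had the largest difference. Its levels were -6.60, -6.39 and -6.86 in Dahl S, -1.60, -1.40 and -1.75 in Dahl R, and -3.07, -2.80 and -2.06 in SHR. The probe was detected on 1 of 3 Dahl S arrays and on all arrays of the other two strains. The fitted Dahl S level was 5.03 ± 0.26 log2 units below Dahl R (limma adjusted p = 0.000126), but 2 of the 3 Dahl S values were not well above background, so the size is not measured exactly. SHR lay between, below Dahl R by 1.06 ± 0.26 (adjusted p = 0.0373), or by 1.35 without the third SHR array. XR_008045 had the same order, with -4.48, -5.06 and -6.05 in Dahl S (detected on 2 of 3), -2.02, -1.91 and -2.35 in Dahl R, and -4.03, -3.45 and -3.41 in SHR. Dahl S was lower than Dahl R by 3.11 ± 0.38 (limma adjusted p = 0.00949). This call too was lost with the slide as a block, which rests on the first Dahl R array. The 3 strains did not overlap at XR_007075 or at XR_008045, with Dahl S lowest and Dahl R highest.

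XR_007504 read -2.46, -2.75 and -3.06 in Dahl S, -0.62, -0.54 and -0.79 in Dahl R, and -1.92, -1.42 and -1.08 in SHR. All 9 values were ordered Dahl S, SHR, Dahl R without overlap. Dahl S was lower than Dahl R by 2.11 ± 0.23 (limma adjusted p = 0.00567, 4.30-fold), while SHR minus Dahl R was short of the threshold (-0.83 ± 0.23, adjusted p = 0.0567) but passed it without the third SHR array (-1.02, adjusted p = 0.0147). XR_009635 was near the detection limit, with -6.36, -6.10 and -6.39 in Dahl S (detected on 1 of 3), -5.29, -4.70 and -4.44 in Dahl R, and -5.34, -5.24 and -4.69 in SHR. Its difference of -1.47 ± 0.25 (adjusted p = 0.037) was 0.73 in the other direction with normexp background correction (adjusted p = 0.58).

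That correction was run on the median signal and median background of each spot, in place of the processed signal, and adds an offset to all signals. With it, 2 of the 8 Dahl calls remained, XR_008415 and XR_007868. The other differences had the same direction, apart from XR_009635, but did not pass. The median Dahl S minus Dahl R difference over all tested XR probes was then 0.51, beside -0.01 in the main fit. The change of sign at XR_009635 thus came with a rise over the XR probes as a whole. Dahl S minus Dahl R was -1.77 for XR_007075 and -1.04 for XR_008045 (limma adjusted p = 0.46 for each), -1.37 for XR_007504 (adjusted p = 0.329), 2.21 for XR_005427 (adjusted p = 0.34) and 1.45 for XR_009344 (adjusted p = 0.223).

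**Figure D4:**
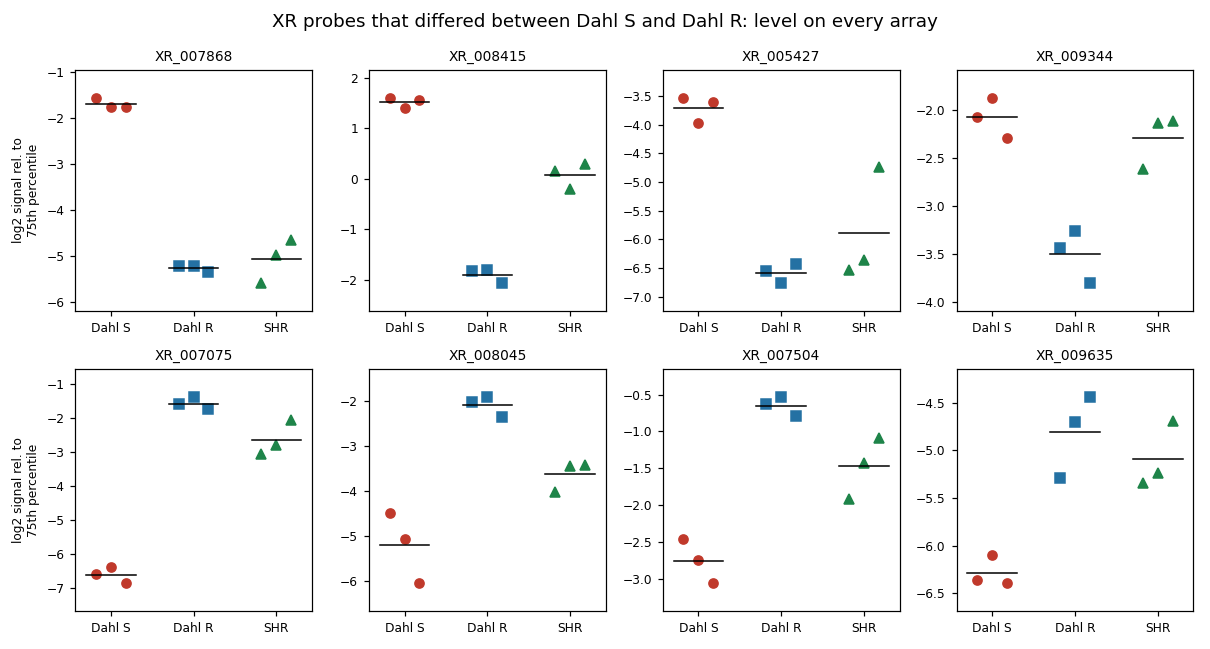
Level (vertical axis, log2 relative to the 75th percentile) of the 8 XR probes called between the Dahl strains, 1 panel per probe with 1 point per rat grouped by strain and a bar at each strain mean. No Dahl S point overlaps a Dahl R point, and the SHR points lie nearer 1 Dahl strain or the other, or between them.

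The number of Dahl differences depended on which animals were in the fit. Without the third SHR array, the Dahl strains differed at 27 XR probes (background 4.59%), 16 with Dahl S higher (2.52%) and 11 with Dahl S lower (2.08%), the 8 named above among them, and 10 of the 27 by at least 2-fold (1.5%). Leaving out the first, the second or the third Dahl S array, or the second or the third Dahl R array, gave 4 or 5 (0.448 to 0.755% of all tested probes). Within slide 1, which holds the 3 Dahl S rats and 1 Dahl R rat, XR_008415, XR_007868 and XR_007075 differed (limma adjusted p = 0.0248 for each), and the count there was 3 (0.193% of all tested probes). That fit takes its spread from the 3 Dahl S arrays and assumes that the lone Dahl R rat varies like them, so it says little about Dahl R. With the replicate number as a block the count was also 3 (0.452%), although the numbers do not mark pairs of rats.

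SHR was the strain that most often stood apart. Across the 3 strains, 73 XR probes (9.1%) passed limma's moderated F test, against 15% of all tested probes. At 56 of the 73 (76.7%) the SHR mean lay farther from the other two means than these lay from each other, 29 with SHR higher and 27 with SHR lower. Dahl S stood apart at 14 (19.2%) and Dahl R at 3 (4.11%). Over all probes that passed the test the shares were 74.4, 15.3 and 10.3%. The F test count was 166 without the third SHR array (27.6% of all tested probes) and 48 (8.66 to 9.81%) without the second Dahl S array, the third Dahl S array or the second Dahl R array.

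Of the 84 XR probes that differed between Dahl S and SHR, 38 were higher in Dahl S (background 7.08%) and 46 were lower (8.62%), 57 of them by at least 2-fold (6.97%). Of the 62 that differed between SHR and Dahl R, 33 were higher in SHR (7.56%) and 29 were lower (5.49%), 41 by at least 2-fold (5.5%). Both comparisons use the same 3 SHR arrays. Without the third SHR array the counts rose to 171 (background 26.2%; 102 higher in Dahl S, 13%, and 69 lower, 13.2%) and 127 (background 22.7%; 49 higher in SHR, 12.2%, and 78 lower, 10.6%), and 82 of the 84 and 61 of the 62 were among them. The share higher in Dahl S thereby moved from 45.2 to 59.6%, and it was 58.5% with quantile normalization, 57.3% in the authors' normalized values and 63.4% with the slide as a block. The share higher in SHR than in Dahl R moved from 53.2 to 38.6% without that array, 40.3% with quantile normalization and 41.8% with the slide block. The balance of higher and lower calls against SHR therefore had no settled direction. The Dahl S against SHR count was 51 (8.05% of all tested probes) without the second Dahl S array and 49 (9.17%) without the third, and the SHR against Dahl R count was 33, 34 and 38 without the first, the second and the third Dahl R array (6.57, 5.85 and 7.01%).

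The largest rises in SHR were at 2 XR probes, both bright in that strain. XR_007560 had levels of -0.91, -1.09 and -0.89 in Dahl S, -1.15, -1.14 and -1.11 in Dahl R, and 4.36 and 4.09 on the first and second SHR arrays, all its spots on the third being marked as outliers and left out. SHR exceeded Dahl S by 5.19 ± 0.12 log2 units (limma adjusted p = 3.49e-06, 36.5-fold) and Dahl R by 5.36 ± 0.12 (adjusted p = 2.82e-06, 41.0-fold). Dahl S and Dahl R differed by 0.17 ± 0.11 (adjusted p = 0.723).

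XR_009394 had the same pattern, with 0.71, 0.61 and 0.81 in Dahl S, 0.59, 0.58 and 0.63 in Dahl R, and 5.06 and 4.84 in SHR, again without the third SHR array. SHR was higher by 4.24 ± 0.11 than Dahl S (limma adjusted p = 4.84e-06, 18.9-fold) and by 4.35 ± 0.11 than Dahl R (adjusted p = 4.65e-06, 20.4-fold). With the marked spots kept, these SHR minus Dahl R differences were 5.49 and 4.40. Within slide 2, with the second and the third Dahl R arrays and the first and second SHR arrays, they were 5.35 (adjusted p = 0.00194) and 4.34 (adjusted p = 0.00208), so both were as large within that scan.

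XR_007793 was dim in the Dahl strains and rose in SHR, at -5.27, -5.30 and -5.49 in Dahl S, -4.90, -5.05 and -5.06 in Dahl R, and -2.54, -2.26 and -1.31 in SHR. The third SHR array was the highest. SHR exceeded Dahl R by 2.96 ± 0.28 (limma adjusted p = 0.000649, 7.80-fold), and by 2.60 without that array, but the call did not pass with normexp background correction (2.26, adjusted p = 0.137). XR_007238 was detected on all 9 arrays, with -0.52, -0.96 and -1.03 in Dahl S, -0.85, -0.72 and -1.14 in Dahl R, and 0.82, 0.77 and 1.16 in SHR. Both Dahl strains lay below every SHR rat, by 1.82 ± 0.18 for Dahl R (adjusted p = 0.000821, 3.53-fold) and 1.70 without the third SHR array.

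In the other direction, XR_009077 had the largest fall in SHR against Dahl S. It read 0.65, 0.43 and 0.61 in Dahl S, 0.49, 0.44 and 0.43 in Dahl R, and -3.64, -3.93 and -3.52 in SHR. The Dahl strains overlapped, and the probe was detected in SHR on 2 of 3 arrays, the third SHR array being the exception. The SHR level was 4.26 ± 0.13 below Dahl S (limma adjusted p = 3.06e-06, 19.2-fold) and 4.15 ± 0.13 below Dahl R (adjusted p = 2.49e-06, 17.8-fold), or by 4.35 and 4.24 without the third SHR array. XR_008432 was close to it, with 0.35, -0.00 and 0.20 in Dahl S, 0.22, 0.11 and 0.01 in Dahl R, and -3.43, -4.25 and -4.51 in SHR, again detected on 2 of 3 SHR arrays. The fall was 4.25 ± 0.26 against Dahl S (adjusted p = 7.34e-05, 19.0-fold) and 4.17 ± 0.26 against Dahl R (adjusted p = 8.73e-05), or 4.02 and 3.95 without that array.

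XR_006867 was lower in SHR at a lower level, with -1.50, -1.45 and -1.43 in Dahl S, -1.62, -1.66 and -1.69 in Dahl R, and -4.69, -4.72 and -4.40 in SHR (2 of 3 detected). SHR lay below Dahl S by 3.14 ± 0.11 (limma adjusted p = 4.55e-06, 8.83-fold) and below Dahl R by 2.94 ± 0.11 (adjusted p = 4.65e-06), or by 3.25 and 3.05 without the third SHR array. XR_005698 was detected on all 9 arrays, at 1.14, 1.08 and 1.01 in Dahl S, 0.96, 1.09 and 1.21 in Dahl R, and -1.15, -1.58 and -1.27 in SHR. The Dahl strains differed by 0.01 ± 0.13 in mean, and SHR was below Dahl R by 2.41 ± 0.13 (adjusted p = 3.78e-05, 5.33-fold), or by 2.45 without the third SHR array.

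Dimmer probes also separated SHR from the Dahl strains in both directions. XR_006609 read -6.88, -6.96 and -7.37 in Dahl S (detected on 0 of 3), -6.42, -6.52 and -6.79 in Dahl R (1 of 3), and -4.94, -3.66 and -3.97 in SHR (2 of 3). Every SHR rat lay above every Dahl rat, and the fitted Dahl S minus SHR difference passed (limma adjusted p = 0.00108). Without the third SHR array, where the probe was not detected, the bound was at least 4.15-fold. The call ended with the slide as a block (adjusted p = 0.0605) and with normexp background correction (-0.11, adjusted p = 0.941). XR_005811 read -5.64, -5.30 and -5.45 in Dahl S, -5.44, -5.86 and -5.90 in Dahl R, and -3.25, -3.78 and -3.31 in SHR, and SHR exceeded Dahl R by 2.29 ± 0.19 (adjusted p = 0.000322), or by 2.22 without the third SHR array, and by 1.68 with normexp, which did not pass (adjusted p = 0.292). XR_007631 was lower in SHR, with -1.05, -1.46 and -1.41 in Dahl S, -1.58, -1.40 and -1.75 in Dahl R, and -3.75, -3.95 and -4.53 in SHR, 2.50 ± 0.22 below Dahl R (adjusted p = 0.000415) and 2.27 below it without that array. The dim probes XR_008674 and XR_007022 were also higher in SHR than in Dahl S (adjusted p = 0.0124 and 0.0128), by bounds of at least 1.92-fold and 1.69-fold without the third SHR array. Like XR_006609, each was detected on 0 of 3 Dahl S, 1 of 3 Dahl R and 2 of 3 SHR arrays. These probes thus met the 3-array minimum for testing mainly through SHR, where they were high, and their p-values take no account of that entry. The calls of XR_008674 and XR_007022 ended with the slide as a block (limma adjusted p = 0.202 and 0.186). With normexp background correction both changed sign, to 0.30 and 0.42 for Dahl S minus SHR. The median of that difference over all tested XR probes was then 0.31, beside -0.14 in the main fit.

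Others of the probes with the largest differences were less even within a strain. XR_005599 read -3.43 on the first Dahl S array and -1.51 and -1.74 on the other two, with 1 of its 3 spots there, in row 300, at -7.68. It was lower in SHR by 2.78 ± 0.48 against Dahl S (limma adjusted p = 0.00865) and by 3.35 ± 0.48 against Dahl R (adjusted p = 0.00432), or by 3.05 and 3.62 without the third SHR array. The Dahl S against SHR call ended with the slide as a block (adjusted p = 0.146) and with normexp (adjusted p = 0.0719), and that against Dahl R with normexp (adjusted p = 0.0772). XR_007147 and XR_009393 had Dahl S minus SHR differences of 2.92 and 2.54, which were 1.76 and 1.70 without the third SHR array; the XR_007147 call ended with the slide as a block (adjusted p = 0.0847) and with normexp (adjusted p = 0.0841).

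**Figure D5:**
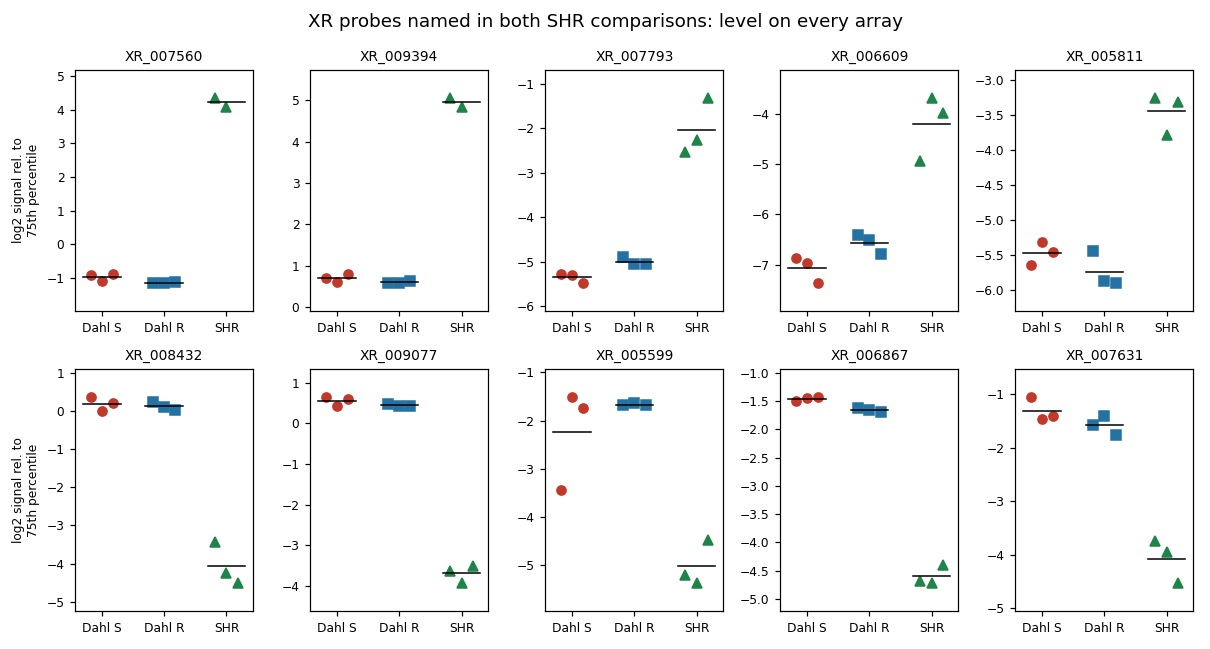
Level (vertical axis, log2 relative to the 75th percentile) of XR probes with the largest differences between SHR and the Dahl strains, 1 panel per probe with 1 point per rat grouped by strain and a bar at each strain mean. XR_007560 and XR_009394 have 2 SHR points each, at 4.09 or above, and the Dahl points of these panels cluster together.

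Markers of other cell types moved with SHR in part. As summed signal in multiples of the 75th percentile, 3 endothelial markers on the array read 32.7 to 44.5 in SHR against 24.1 to 26.2 in Dahl S and 23.4 to 25.3 in Dahl R. The 3 distal convoluted tubule markers on the array read 122 to 163 in SHR against 83.7 to 110.03 and 86.1 to 112, and the 5 leukocyte markers 20.1 to 38.5 against 45.4 to 51.1 and 45.9 to 49.7. The 6 proximal tubule markers read 344 to 567 in SHR against 582 to 628 in Dahl S and 552 to 655 in Dahl R. The third SHR array gave the extreme of each of these: without it SHR read 32.7 to 35.6 for endothelium, 122 to 137 for distal tubule, 35.6 to 38.5 for leukocytes and 519 to 567 for proximal tubule. Collecting duct markers read 135 to 185 in SHR, against 116 to 150 in Dahl S and 112 to 144 in Dahl R. Fat cell markers read 6.36 to 43.6, against 12.9 to 19.6 and 11.3 to 24.3. Both overlapped with all arrays, but without the third SHR array SHR read higher, at 159 to 185 and 29.6 to 43.6. Red cell markers overlapped between SHR (240.4 to 279.8) and the Dahl strains (269.8 to 363.7 in Dahl S, 240.9 to 257.3 in Dahl R). So did podocyte, thick ascending limb and adrenal markers. The part of any of these markers in the XR differences was not tested. SHR and Dahl S shared no slide, and for that comparison strain and slide cannot be told apart without the Dahl R arrays as a bridge.

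Some XR models were detected in all 3 animals of 1 strain and in none of another. There were 16 such probes. They were picked by this detection pattern, and the p-values given for them below take no account of that choice. Detected in Dahl R and not in SHR were 11 (1.37% of tested XR probes, 0.711% of all tested probes), in Dahl S and not in SHR 6 (0.748 against 0.464%), in Dahl R and not in Dahl S 3 (0.374 against 0.506%), and in Dahl S and not in Dahl R 1 (0.125 against 0.0663%). No XR probe was detected in all SHR rats and in none of a Dahl strain (0 of 802 for each, beside 0.0362% of all tested probes). The third SHR array had by far the highest detection limit, which bears on every one of these counts with SHR in it. Counted with the first and the second SHR array alone, a choice made after seeing the data, 15 XR probes (1.87%, beside 0.922% of all tested probes) were detected in SHR and in no Dahl S rat and 0 in SHR and in no Dahl R rat (beside 0.127%), while the counts of probes missing from SHR were again 11 and 6.

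XR_007009 was the clearest of these. Levels were -4.64, -4.59 and -4.64 in Dahl S, -4.68, -4.55 and -4.73 in Dahl R, and -8.38, -8.96 and -4.43 in SHR. The 6 Dahl values lay within 0.2 units of each other, the first and second SHR arrays lay far below, and the third was at the level of undetected probes on that array. With all arrays it did not pass the threshold against Dahl S (limma adjusted p = 0.127). Without the third SHR array Dahl S was higher by 4.05 ± 0.16 (adjusted p = 1.54e-05), and since the probe was not well above background on either remaining SHR array, the difference is stated as a bound: at least 6.13-fold higher in Dahl S.

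XR_007124 and XR_005665 had the same pattern, with bounds of at least 5.80-fold and 4.78-fold for Dahl S over SHR without that array (limma adjusted p = 0.00017 and 6.6e-05). These bounds set the mean of the brighter strain against, on each SHR array, whichever was brighter, the dim probe itself or the dimmest probe marked well above background. Between the Dahl strains, XR_006313 was detected in all Dahl S rats (-3.68, -4.18 and -5.13) and in no Dahl R rat (-6.98, -7.39 and -6.41). Its bound was at least 5.41-fold, and it passed the threshold without the third SHR array (limma adjusted p = 0.0162) but not with it (adjusted p = 0.0987). It was also detected on 1 SHR array, so it met the 3-array minimum for testing through Dahl S, where it was high. These p-values take no account of that entry. The 3 probes detected in Dahl R and not in Dahl S, XR_007048, XR_006826 and XR_006799, were all near the detection limit, the highest Dahl R level being -4.996 at XR_006826 in the first Dahl R rat, with adjusted p from 0.541 to 0.855. With the slide as a block, Dahl S minus Dahl R at XR_006826 was -1.79, a difference that rests on the first Dahl R rat alone. The other Dahl R rats read -6.62 and -6.63, near Dahl S at -6.97, -6.64 and -6.74.

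Strain calls were spread over dim and bright XR probes. In Dahl S against SHR, 27 of 303 probes with a mean level below -4 differed (8.91%, beside 11.5% of all tested probes in that range). Of the 214 between -4 and -1, 30 differed (14%, beside 22.2%), and of the 285 above -1, 27 differed (9.47%, beside 14.7%). Without the third SHR array the counts in these ranges were 66 (21.8%, beside 24%), 51 (23.8%, beside 33.6%) and 54 (18.9%, beside 24%). Among the probes called, 4 of 8, 35 of 84 and 30 of 62 were detected on all 6 arrays of their comparison, the Dahl strains first, then Dahl S with SHR, then SHR with Dahl R.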

How the data were processed

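Kidney RNA of 9 rats was measured on 9 arrays. Per the labels' protocols, 1 μg of RNA was amplified and labelled with Cy3, and per the file headers and the submitters' processing notes scans were read with Agilent Feature Extraction 10.5.1.1. The deposited processed signal is a linear intensity, already background-subtracted per the file headers' parameters, and the deposited marks for well above background and outlier spots are 0 or 1. The authors' normalized table holds log2 values for 19407 probes (1161 XR), which correlated at 0.974 to 1.00 with log2 scanner signals; its column medians were 9.63 to 9.64, its normalization is not given in the sources used here, and it was used as an alternative. The XR probes and the lists were chosen with earlier results of these data known.

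Spots with an outlier mark were left out, log2 intensities were set relative to each array's 75th percentile over non-control spots, and remaining spots of each probe averaged. To be tested, a probe needed the mark for well above background on at least 0.5 of its spots on 3 or more arrays, and a usable spot in every strain. limma 3.58.1 in R 4.3.3 (lmFit, contrasts.fit, eBayes) was fitted to all 9 arrays together over 16592 probes, with Benjamini-Hochberg adjustment per comparison and a threshold of 0.05; the script was tested on simulated data. Named probes were the 8 largest called differences each way in each comparison with no overlap between strains, the 10 brightest, and up to 15 detected in all rats of 1 strain and none of another. The rows of low spots were found by a script as bins of 40 rows with over 0.05 of spots low. XR_007117, and the probes with 1 animal apart, were chosen after their values were seen. The arrays' number, 3 per strain, limits the precision. Replicate numbers were not taken as pairs: deviations of same-numbered arrays correlated at -0.16 to 0.07.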

Additional observations from a re-analysis of the deposited data

How the results depend on the processing

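Counts of XR probes past the threshold are given for the Dahl strains, Dahl S with SHR, SHR with Dahl R and any strain, in that order. Shares of all tested probes past it follow in brackets. Reported were 8, 84, 62 and 73 (1.4, 15.7, 13 and 15%). With normexp background correction they were 2, 22, 19 and 23 (0.259, 3.31, 2.51 and 3.07%). With the percentile taken over spots without an outlier mark they were 3, 28, 24 and 25 (0.241, 3.77, 3.03 and 3.3%). No filter on dim probes gave 5, 53, 39 and 45 (0.377, 6.05, 4.82 and 5.39%). Array weights gave 79, 243, 180 and 296 (13.9, 36.9, 32.2 and 47.1%). With the slide as a block the SHR counts were 41 and 98 (5.22 and 16%). With the replicate number as a block the Dahl count was 3 (0.452%), and no other count of calls moved by over 1.5 times. Leaving out 1 array gave 4 to 27 (0.448 to 4.59%), 49 to 171 (8.05 to 26.2%), 33 to 127 (5.85 to 22.7%) and 48 to 166 (8.66 to 27.6%). Chosen after seeing the data were the fits within slide 1 alone and within slide 2 alone, and the limit to probes well above background on all 9 arrays. That limit gave 5, 41, 41 and 43 (2.5, 20.1, 19.2 and 21.2%). Of 60 named differences, 40 passed, beside 20 with normexp, 3 within slide 1 (of 12), 23 within slide 2 (of 26), 13 on all 9 arrays (of 13), and 31 to 57 with 1 array left out. The level gap to other noncoding probes was -0.38 with no dim filter. With normexp, XR_009635 (Dahl S minus Dahl R, 0.73), XR_008674 (Dahl S minus SHR, 0.30) and XR_007022 (Dahl S minus SHR, 0.42) reversed. With normexp the median over tested XR probes was 0.51 for Dahl S minus Dahl R and 0.31 for Dahl S minus SHR. The reported medians were -0.01 and -0.14. The causes of these changes were not tested. Of the calls, 1 of 8, 13 of 84 and 14 of 62 passed in every planned setting in which the probe was tested. Low signal over background limits dim probes, most of all on the third SHR array.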

Other observations

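On the first Dahl S array a block of XR spots was low without an outlier mark. Tested XR probes detected on all 3 arrays of a Dahl strain were searched for 1 rat more than 2 log2 units from both others of its strain. There were 10 such probes, and in all 10 it was the first Dahl S rat, which was lower. XR_008598 read 0.32 there and 3.98 and 4.10 in the other Dahl S rats; its 3 spots were at -7.34, 4.17 and 4.11, with a median of 4.11. XR_007065 read -1.04 as a mean of spots and 2.33 as their median, XR_006877 read 0.67 and 3.60, and XR_009493 read -1.49 and 1.53. Of the 10, 9 had a spot in rows 281 to 360 of the 532 rows of the grid, where 322 tested XR probes have at least 1 spot; XR_008741 (2.04 as a mean, 4.56 as a median) had its low spot outside. On the other 7 arrays examined, 0 to 1.19% of XR spots in those rows were as low. Both alternatives, chosen after seeing the data, left the counts close to those reported. The median of spots gave 9, 92 and 66 XR probes for the Dahl strains, Dahl S with SHR and SHR with Dahl R. The shares of all tested probes were 1.46, 16.2 and 13.2%. Leaving those rows out on that array gave 7, 88 and 66, beside 1.48, 16 and 13.7% of all tested probes. With the rows left out, XR_009635 no longer passed between the Dahl strains (adjusted p = 0.0686).

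Some XR levels grouped by scan. At 100 of 796 XR probes with a value on all 8 arrays of slides 1 and 2 (12.6%), no slide 1 array overlapped a slide 2 array, beside 13.6% of all tested probes. XR_007117 read -4.54, -4.70 and -5.06 in Dahl S and -4.51 in the first Dahl R rat, all on slide 1, but -6.79 and -6.69 in the other Dahl R rats and -7.14 and -6.79 in the first and second SHR rats, all on slide 2. XR_005973, XR_006971 and XR_008500 likewise had the first Dahl R rat nearer to Dahl S than to its own strain. Slide 1 holds all of Dahl S, so for such probes strain and slide cannot be told apart beyond that 1 Dahl R rat.

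4 further XR accessions were on probes of the manufacturer's catalogue, outside the naming rule and printed as 10 spots each. XR_006686 was detected on 9 arrays at 0.61 to 1.00, XR_006771 on 8 at -4.24 to -2.52, XR_009039 on 8 at -5.23 to -4.0, and XR_009491 on 0. The limma adjusted p of the 3 tested ranged from 0.138 to 0.998 over the strain comparisons.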
